A study of Mus musculus with 12 samples.

Results

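Messenger RNA was measured in primary microglia, the resident macrophages of the brain, for 8 genes that encode C-type lectin receptors of myeloid cells: Clec4a1, Clec4a3, Clec4a2, Clec4n, Clec4d, Clec4e, Clec5a and Clec12a. The genes were taken by symbol (GENCODE M21, build GRCm38) from a table of 52636 Ensembl mouse gene identifiers; all 8 were in the table and all 8 passed the filter on low counts, with 508 to 21659 reads each in every library. Cells were cultured for 24 h with full-length neurofilament light chain (FL-NfL, 5 µg, n = 4), its coiled-coil part (CC-NfL, 5 µg, n = 4) or the vehicle alone (Vehicle, n = 4). Neurofilament light chain is a protein of the axon skeleton that reaches the extracellular fluid after neuronal injury, and the design asks how microglia respond to it from outside. All 12 cultures were wild-type C57BL/6 microglia from pups of postnatal day 1 to 2, shaken off mixed glia and kept in serum at 50000 cells per well with 2.5 ng of the growth factor CSF1, so that Vehicle cells too had serum and CSF1. The sources used here do not give the volume that the 5 µg of protein went into, nor a check of it for bacterial products. Libraries were numbered 1 to 4 in each group; by the labels this number is also the batch, and 1 library of each group made up a batch. Whether a batch was its own culture or litter is not stated, and p-values therefore describe the spread among these libraries, which may be technical.

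C-type lectin receptors bind sugars, lipids and debris of microbes and of dying cells. Some of them lack a signalling motif of their own and pair with an adaptor that carries one (the FcRγ chain or DAP12), which recruits the kinase Syk and, through CARD9, drives inflammatory genes. Others carry an inhibitory motif (ITIM) in the cytoplasmic tail that recruits the phosphatases SHP-1 and SHP-2 and dampens the same signal. Many of the genes sit side by side in the genome. On chromosome 6 of GRCm38, 9 Clec genes lay within 368 kb (chr6:122921848-123289870), in the order Clec4a1, Clec4a3, Clec4a4, Clec4b1, Clec4a2, Clec4b2, Clec4n, Clec4d and Clec4e; all but Clec4e are on the plus strand. Clec5a (chr6:40574894-40585821, minus strand) and Clec12a (chr6:129342691-129365303, plus strand) lie elsewhere on the same chromosome.

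The promoters below are those of the 3 genes that rose with FL-NfL (Clec4a1, Clec4a3, Clec4a2) and of Clec4e at the other end of the cluster. Clec4e was also higher with FL-NfL, 2.65-fold against Vehicle, but was called only in some of the tests. They run 5′ to 3′ on the strand of the gene, as 250 bases before to 50 bases after the transcription start that RefSeq gives (GRCm38.p6), at chr6:122921598-122921897 (plus), chr6:122952394-122952693 (plus, the second of 2 RefSeq starts of Clec4a3), chr6:123122440-123122739 (plus) and chr6:123289822-123290121 (minus). Capitals mark the letters GAGGAA, the core of sites for the myeloid factor PU.1, and TTNCNNAA, a loose pattern for C/EBP factors, on either strand.
Clec4a1: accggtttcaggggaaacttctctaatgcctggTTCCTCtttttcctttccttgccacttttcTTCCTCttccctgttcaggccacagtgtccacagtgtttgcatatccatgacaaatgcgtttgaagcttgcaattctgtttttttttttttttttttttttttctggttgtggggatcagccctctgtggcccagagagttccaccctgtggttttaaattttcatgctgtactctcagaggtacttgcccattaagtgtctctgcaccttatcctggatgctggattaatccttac
Clec4a3: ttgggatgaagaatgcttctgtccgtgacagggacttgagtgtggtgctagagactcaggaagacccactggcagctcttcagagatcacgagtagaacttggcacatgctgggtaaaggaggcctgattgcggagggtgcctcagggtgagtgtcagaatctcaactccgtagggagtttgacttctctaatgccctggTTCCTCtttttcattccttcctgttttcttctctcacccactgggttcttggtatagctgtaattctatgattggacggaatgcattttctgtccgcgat
Clec4a2: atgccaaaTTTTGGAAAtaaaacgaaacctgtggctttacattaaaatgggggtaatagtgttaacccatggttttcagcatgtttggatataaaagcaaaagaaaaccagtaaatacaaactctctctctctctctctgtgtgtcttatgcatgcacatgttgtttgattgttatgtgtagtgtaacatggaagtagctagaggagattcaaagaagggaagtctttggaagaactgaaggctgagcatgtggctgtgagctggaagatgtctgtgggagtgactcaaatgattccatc
Clec4e: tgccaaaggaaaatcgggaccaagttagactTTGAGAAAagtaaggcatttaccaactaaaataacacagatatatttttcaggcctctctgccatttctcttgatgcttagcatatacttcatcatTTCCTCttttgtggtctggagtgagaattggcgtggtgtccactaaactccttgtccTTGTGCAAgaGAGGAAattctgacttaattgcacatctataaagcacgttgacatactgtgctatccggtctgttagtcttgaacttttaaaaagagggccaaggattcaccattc
The letters GAGGAA stand in 28.3% and TTNCNNAA in 40.7% of the 32851 mouse promoter windows of the same length, so a match is common; each is a description of letters and not a bound site. The first GAGGAA match of Clec4a1 and the match of Clec4a3 (read as TTCCTC on this strand) lie inside the longest run that these windows share, the 17 bases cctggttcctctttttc, at −222 in Clec4a1 and −55 in Clec4a3. That run was found in 2 of the 32851 windows. The letters ttcctcttt within it were found in 250 windows. They also stood in those of Clec4d, Clec4e, Clec5a and Clec12a, which held 3, 2, 2 and 2 GAGGAA matches on either strand. The Clec4a2 window held no GAGGAA, its capitals are 2 overlapping TTNCNNAA matches, and its longest run in common with the Clec4a1 window was 7 bases. The window of the first RefSeq start of Clec4a3, which overlaps the one printed, held neither pattern, and its longest run in common with Clec4a1 was 8 bases. Of the 8 genes, 7 had a RefSeq promoter entry, with 8 windows in all; Clec4n had none.

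Library totals were 20162427 to 31048044 reads, and the 8 genes together took 0.12% to 0.235% of them. The cells carried the microglial markers Csf1r, Cx3cr1 and Aif1 at group means of 156 to 3929 CPM (read counts scaled to library size with TMM factors), whereas Siglech was near 0 in all 12 libraries, and the T cell and NK cell markers Cd3e, Cd3g and Ncr1 were at 0. The neutrophil genes S100a9 and Retnlg, the monocyte gene Chil3 and the dendritic cell gene Cd209a were also at 0. Other genes of those lists were detected, at group means of 110 to 118 CPM for Csf3r, 11.7 to 20.4 for Vcan, 4.38 to 10.1 for Nr4a1 and 5.32 to 7.1 for Mmp8. The labels' replicates 2 and 4 were closer to each other than other pairs of one group but differed by more than counting noise (chi-square per degree of freedom 8.5 to 10.2, against 19.5 to 93.5 for other pairs), so they were kept as separate samples, and results were also computed with both summed.

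Per length, the order of the receptors differed between groups. In reads per kilobase of exon, scaled by library size (RPKM), FL-NfL cells had Clec4d at 326 ± 50.3 and Clec4a1 at 316 ± 26.4 on top, with overlapping libraries (SD, n = 4). CC-NfL cells had Clec4d first at 365 ± 103 RPKM, with no library of the next gene, Clec4a1 (185 ± 69.9), reaching it. In Vehicle cells Clec4d was first at 345 ± 160 RPKM, followed without overlap by Clec4n at 106 ± 64.3, Clec12a at 79.2 ± 9.21, Clec4a1 at 76 ± 22.3 and Clec4a3 at 64.5 ± 19, whose neighbours in the order overlapped. Clec4a2 averaged 56.8 ± 2.97 RPKM in FL-NfL cells, above Clec4e and Clec5a by mean though overlapping Clec4n and Clec4e. It averaged 27.8 ± 7.98 in CC-NfL cells and was the lowest of the 8 in Vehicle cells (13.1 ± 4.76), though not beyond the libraries of its neighbour Clec4e. Clec5a was at 22.2 ± 3.87, 22.2 ± 3.42 and 17.3 ± 5.4 RPKM in FL-NfL, CC-NfL and Vehicle cells.

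**Figure D1:**
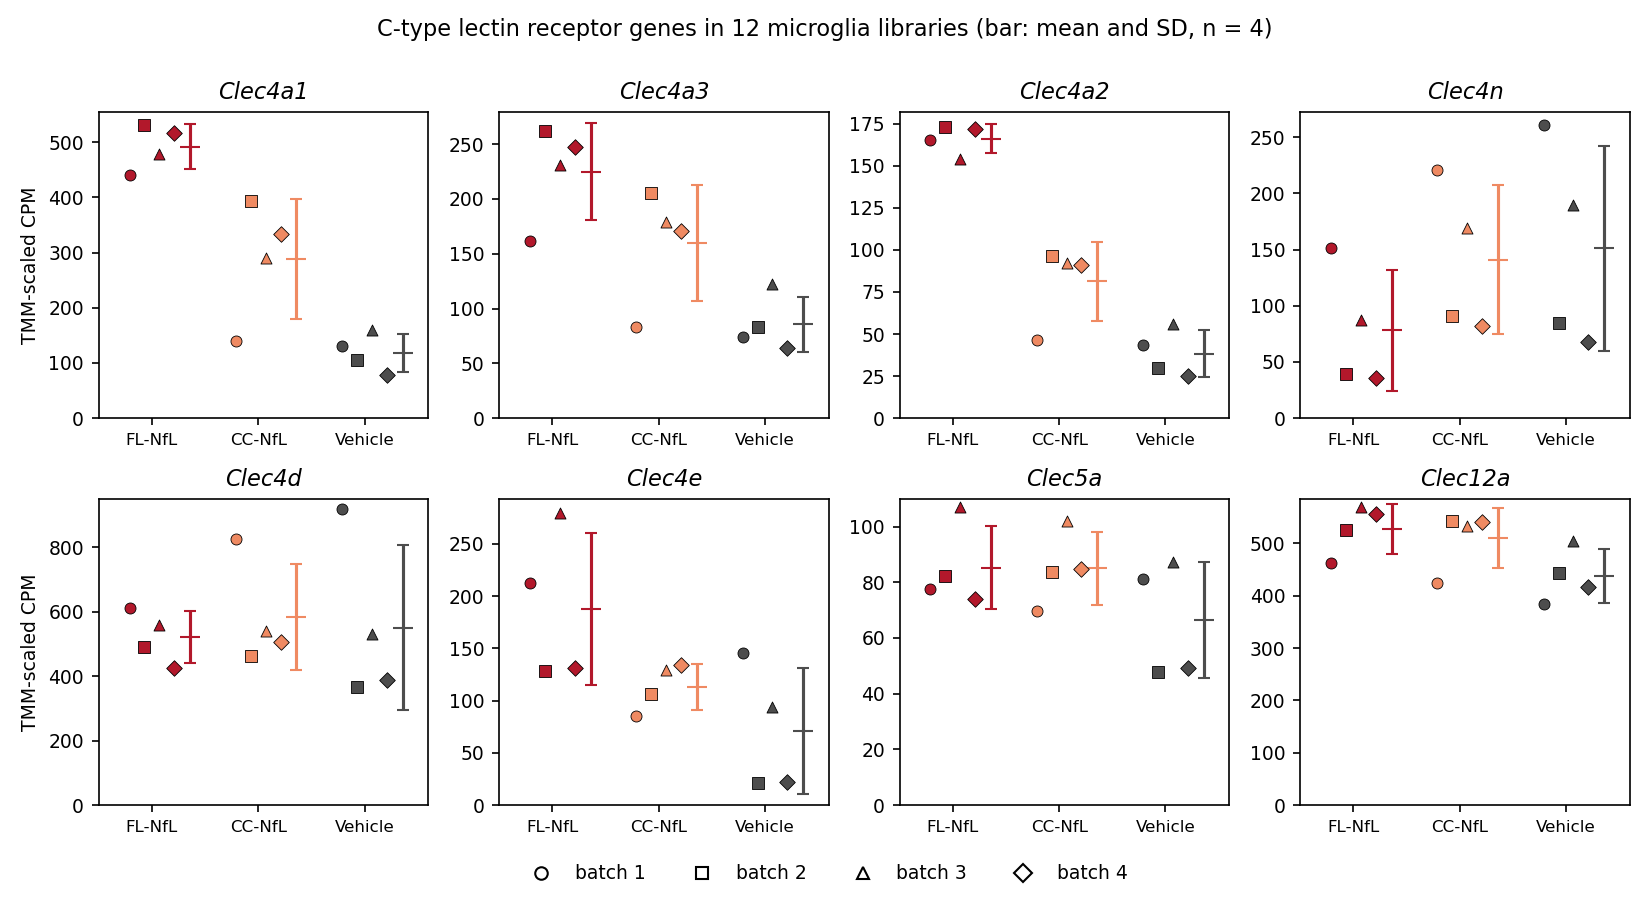
Level of each gene in the 12 libraries, in TMM-scaled CPM on a linear axis from 0; symbols are batches, and the bar beside each group gives its mean and SD (n = 4). All 4 FL-NfL libraries lie above all 4 Vehicle libraries for Clec4a1, Clec4a3 and Clec4a2, while Clec4n and Clec4d keep nearly the same batch order in each group.

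With FL-NfL, 3 of the 8 receptor genes rose relative to Vehicle, and these were the 3 DCIR-type genes Clec4a1, Clec4a3 and Clec4a2 (edgeR quasi-likelihood test, adjusted p under 0.05 over the 14687 genes tested). Among all tested genes 14% were called higher and 10.9% lower in this comparison, so changed genes were common. No receptor gene was called lower in this fit (none at an unadjusted p under 0.05) or by DESeq2, whereas the edgeR fit with the replicate number as a block called 1 lower, Clec4n; the median log2 fold change of the 8 was 0.88, against −0.02 over all tested genes. The same 3 genes were the ones in which no FL-NfL library overlapped a Vehicle library, a pattern that 14.5% of all tested genes showed upward and 11.4% downward. In bulk RNA, more cells of one type and more RNA per cell cannot be told apart.

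Clec4a1 (ENSMUSG00000049037, chr6:122921848-122934619) encodes DCIR4, a relative of the inhibitory receptor DCIR. It had 440, 532, 478 and 516 CPM in FL-NfL replicates 1 to 4, 139, 394, 290 and 333 CPM in CC-NfL replicates, and 130, 106, 160 and 78.2 CPM in Vehicle replicates. Every FL-NfL library was above every CC-NfL and Vehicle library, and CC-NfL replicate 1 lay among the Vehicle libraries while the other 3 CC-NfL libraries lay above all of them. Clec4a1 rose 4.15-fold with FL-NfL against Vehicle (log2 fold change 2.05 ± 0.29, SE; edgeR adjusted p = 0.000947). Within batches 1 to 4 the FL-NfL to Vehicle ratio was 3.39, 5.04, 2.99 and 6.6.

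Clec4a2 (ENSMUSG00000030148, chr6:123106428-123143999) encodes DCIR, the ITIM-bearing receptor of the group. It had 165, 173, 154 and 172 CPM in FL-NfL replicates, 46.5, 96.2, 92.1 and 90.8 CPM in CC-NfL replicates, and 43.2, 29.8, 55.8 and 24.9 CPM in Vehicle replicates. The FL-NfL libraries again stood above all others, and CC-NfL replicate 1 was again inside the Vehicle range. The FL-NfL libraries were also close to each other, with a coefficient of variation of 5.23%, against 28.7% in CC-NfL and 36.3% in Vehicle cells. Clec4a2 rose 4.32-fold with FL-NfL against Vehicle (log2 fold change 2.11 ± 0.26; adjusted p = 0.00057), with within-batch ratios of 3.82, 5.8, 2.76 and 6.91.

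Clec4a3 (ENSMUSG00000043832, chr6:122952515-122969875) encodes DCIR3 and is the next gene to Clec4a1 in the genome. It had 162, 262, 231 and 247 CPM in FL-NfL replicates, 83.6, 205, 179 and 171 CPM in CC-NfL replicates, and 74.2, 82.8, 122 and 63.7 CPM in Vehicle replicates. FL-NfL replicate 1 was the lowest of its group yet above all Vehicle libraries, and the FL-NfL and CC-NfL libraries overlapped. Clec4a3 rose 2.63-fold with FL-NfL against Vehicle (log2 fold change 1.40 ± 0.27; adjusted p = 0.0042), with within-batch ratios of 2.18, 3.16, 1.9 and 3.87. The adjusted p was 0.0511 when replicates 2 and 4 of each group were summed.

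These 3 genes are paralogs. Their coding sequences were 68.9% identical between Clec4a1 and Clec4a3, 65.9% between Clec4a2 and Clec4a3 and 62.5% between Clec4a1 and Clec4a2, above the 38.6% to 54.8% of all other pairs of the 8 genes. Reads of 50 bases could still be placed, since no 50-base stretch of the Clec4a1 or Clec4a3 transcripts recurred in another gene; of Clec4a2, 6.83% did, including 3.85% shared with Clec4a4. The neighbours between them were low. Clec4a4, which encodes the inhibitory DCIR2, averaged 1.14 ± 0.255 CPM in FL-NfL, 0.913 ± 0.518 in CC-NfL and 0.514 ± 0.0974 in Vehicle cells (adjusted p = 0.0821 for FL-NfL against Vehicle). Clec4b1 averaged 3.66 ± 0.902, 3.37 ± 1.67 and 2.14 ± 0.913 CPM in the same groups (adjusted p = 0.196).

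Of the receptor genes listed at the start, the cluster also holds Clec4n, Clec4d and Clec4e, whose products signal through the FcRγ chain. None of these 3 passed in the edgeR fit of all 12 libraries without the batch. Clec4n (ENSMUSG00000023349, chr6:123229843-123247021) encodes Dectin-2, a receptor for fungal mannans. It had 151, 39, 87.3 and 35.5 CPM in FL-NfL replicates, 221, 91.1, 169 and 81.9 CPM in CC-NfL replicates, and 261, 84.8, 190 and 67.7 CPM in Vehicle replicates. The groups overlapped, and in each group batch 1 was highest, followed by batches 3, 2 and 4. Within every batch the FL-NfL library was nevertheless the lowest of the 3, at 0.578, 0.46, 0.459 and 0.524 of the Vehicle library. The fit without the batch gave a log2 fold change of −0.95 ± 0.54 for FL-NfL against Vehicle (adjusted p = 0.216). With the replicate number as a block Clec4n fell, with a log2 fold change of −0.99 ± 0.10 (edgeR adjusted p = 7.35e-05); 22.4% of all tested genes were called lower in that fit. Of the sum of squares of log2 CPM over the 12 libraries, 71% lay between batches, 27.1% between groups and 1.92% in neither. The summed fibroblast markers had the same batch order in each group, at 521, 124, 189 and 79.2 CPM in FL-NfL, 1489, 166, 281 and 147 in CC-NfL and 1404, 405, 416 and 258 in Vehicle cells. Nearly all of that sum was Fn1, at 220 ± 204, 511 ± 652 and 608 ± 532 CPM in the same groups. Col1a1 averaged only 0.384, 0.471 and 0.666 CPM, so the sum is largely the level of 1 gene. The part of these markers in the Clec4n levels was not tested.

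Clec4d (ENSMUSG00000030144, chr6:123262111-123275265) encodes MCL, which pairs with Mincle. Its levels were 611, 491, 558 and 426 CPM in FL-NfL, 827, 462, 541 and 505 CPM in CC-NfL and 920, 367, 532 and 387 CPM in Vehicle replicates. Batch 1 was the highest in each group and the groups overlapped throughout. The log2 fold change was −0.08 for FL-NfL against Vehicle, with a 95% interval of −0.68 to 0.52 (adjusted p = 0.85), and 79% of its sum of squares lay between batches against 3.09% between groups.

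Clec4e (ENSMUSG00000030142, chr6:123281789-123289870) encodes Mincle, a receptor for mycobacterial glycolipid and for a nuclear protein that dying cells release. It had 213, 128, 280 and 131 CPM in FL-NfL, 85.4, 106, 129 and 134 CPM in CC-NfL and 146, 21.3, 93.9 and 22.4 CPM in Vehicle replicates. Vehicle replicates 2 and 4 were far below every other library, whereas Vehicle replicate 1 exceeded 2 of the FL-NfL libraries, so the groups overlapped. FL-NfL was above Vehicle in all 4 batches, by 1.46, 6.02, 2.98 and 5.86 times. The log2 fold change of 1.41 ± 0.54 did not pass (edgeR adjusted p = 0.0749). It passed with the replicate block (1.62 ± 0.43, adjusted p = 0.01), with DESeq2 (adjusted p = 0.046) and without Vehicle replicate 1 (2.04, edgeR adjusted p = 0.0194).

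The 2 receptor genes outside the cluster, Clec5a and Clec12a, did not pass in the edgeR fit of all 12 libraries without the block. Clec5a (ENSMUSG00000029915) encodes MDL-1, which signals through DAP12. It had 77.6, 82.3, 107 and 74.1 CPM in FL-NfL, 69.8, 83.6, 102 and 84.9 CPM in CC-NfL and 81.3, 47.7, 87.1 and 49.4 CPM in Vehicle replicates. All groups overlapped, Vehicle replicates 2 and 4 being the lowest libraries. Its log2 fold change with FL-NfL was 0.36 ± 0.20 (adjusted p = 0.211). It passed with the replicate block (adjusted p = 0.0489), but not when replicates 2 and 4 were also summed (0.30, adjusted p = 0.158).

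Clec12a (ENSMUSG00000053063) encodes MICL, an ITIM-bearing receptor for uric acid crystals of dead cells. It had 462, 525, 570 and 557 CPM in FL-NfL, 425, 542, 534 and 541 CPM in CC-NfL and 385, 443, 505 and 417 CPM in Vehicle replicates. The ranges overlapped, although each FL-NfL and CC-NfL library was above the Vehicle library of its batch. The log2 fold change with FL-NfL was 0.27 ± 0.11 (adjusted p = 0.0885). Clec12a passed with the replicate block (adjusted p = 0.00703), as it did without FL-NfL replicate 1 (0.0411), CC-NfL replicate 1 (0.0447) or Vehicle replicate 3 (0.0351).

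With the replicate block, 6 of the 8 genes were called higher and 1, Clec4n, lower with FL-NfL against Vehicle. That fit also called more genes in general, 21.4% of all tested genes higher and 22.4% lower. Without reference to a model, 5 of the 8 genes were higher in FL-NfL than in Vehicle in all 4 batches and 1 was lower, where 26.5% of all tested genes were higher and 28.1% lower in all 4.

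**Figure D2:**
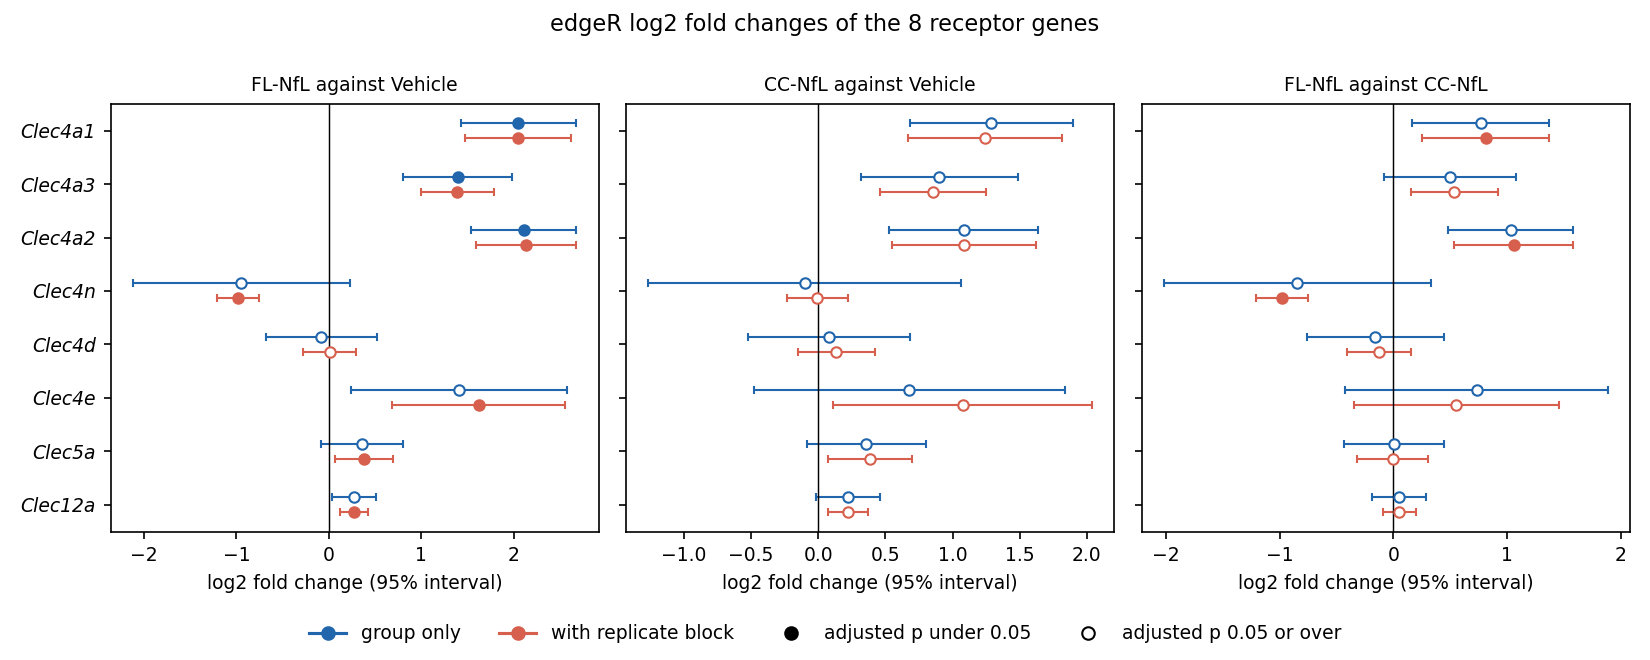
Log2 fold change and 95% interval of the 8 genes in each comparison, without the batch (blue) and with the replicate number as a block (red); filled points have an adjusted p under 0.05. The block moves the estimate most for Clec4e with CC-NfL against Vehicle (1.07, against 0.68 without it) and narrows the interval most for Clec4n, to −1.21 to −0.76 for FL-NfL against Vehicle.

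**Figure D3:**
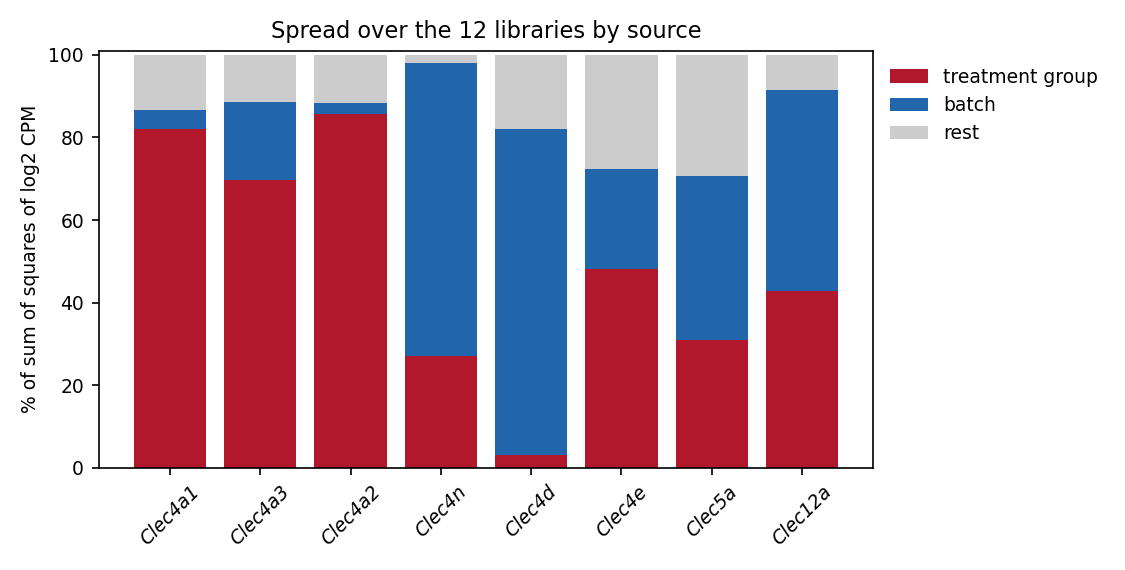
Share of the sum of squares of log2 CPM over 12 libraries that lay between treatment groups, between batches and in neither, in percent. The group share was 82% for Clec4a1, 85.7% for Clec4a2 and 69.6% for Clec4a3, against 27.1% for Clec4n and 3.09% for Clec4d.

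With CC-NfL against Vehicle none of the 8 genes passed the threshold, nor did any other tested gene (0% called; edgeR, 1082 genes or 7.37% at an unadjusted p under 0.05). Clec4a1, Clec4a2 and Clec4a3 had unadjusted p-values under 0.05. DESeq2 called 34 genes, of which 2 were receptor genes. These were 0.939% (0.691% higher) of only the 3619 genes to which DESeq2 gave an adjusted p. With the replicate block 1 gene was called higher and 1 lower (0.00681% each), neither of them a receptor gene. The estimates were all the same largest for Clec4a1 (log2 fold change 1.29 ± 0.28, adjusted p = 0.621), Clec4a2 (1.08 ± 0.26, adjusted p = 0.621) and Clec4a3 (0.90 ± 0.27, adjusted p = 0.646). DESeq2 gave adjusted p = 0.00245 for Clec4a1, 0.00651 for Clec4a2 and 0.0664 for Clec4a3. The size differed between batches: the CC-NfL to Vehicle ratio of Clec4a1 was 1.07, 3.73, 1.81 and 4.26 in batches 1 to 4, and that of Clec4a2 was 1.08, 3.22, 1.65 and 3.65. For both genes CC-NfL replicate 1 was close to its Vehicle library, whereas replicates 2 and 4 were more than 3 times theirs. Without CC-NfL replicate 1, Clec4a1 (1.52, adjusted p = 0.0335) and Clec4a2 (1.27, adjusted p = 0.047) passed.

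The other members had smaller or less even values with CC-NfL. Clec4e had a log2 fold change of 0.68 ± 0.53 (adjusted p = 0.806), with ratios of 0.585, 4.96, 1.38 and 5.96 in batches 1 to 4. Clec4n was at −0.10, with a 95% interval of −1.26 to 1.06 (adjusted p = 0.968), and the replicate block narrowed this to −0.23 to 0.22. Clec12a (0.22 ± 0.11, adjusted p = 0.688) was higher in 4 of 4 batches, Clec5a (0.36 ± 0.20, adjusted p = 0.738) and Clec4d (0.08 ± 0.28, adjusted p = 0.95) in 3 of 4. In all, 4 of the 8 genes were higher in each of the 4 batches, as were 11% of all tested genes, and the groups overlapped for all 8, as they did for all but 1.42% (CC-NfL above) and 1.31% (CC-NfL below) of tested genes.

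**Figure D4:**
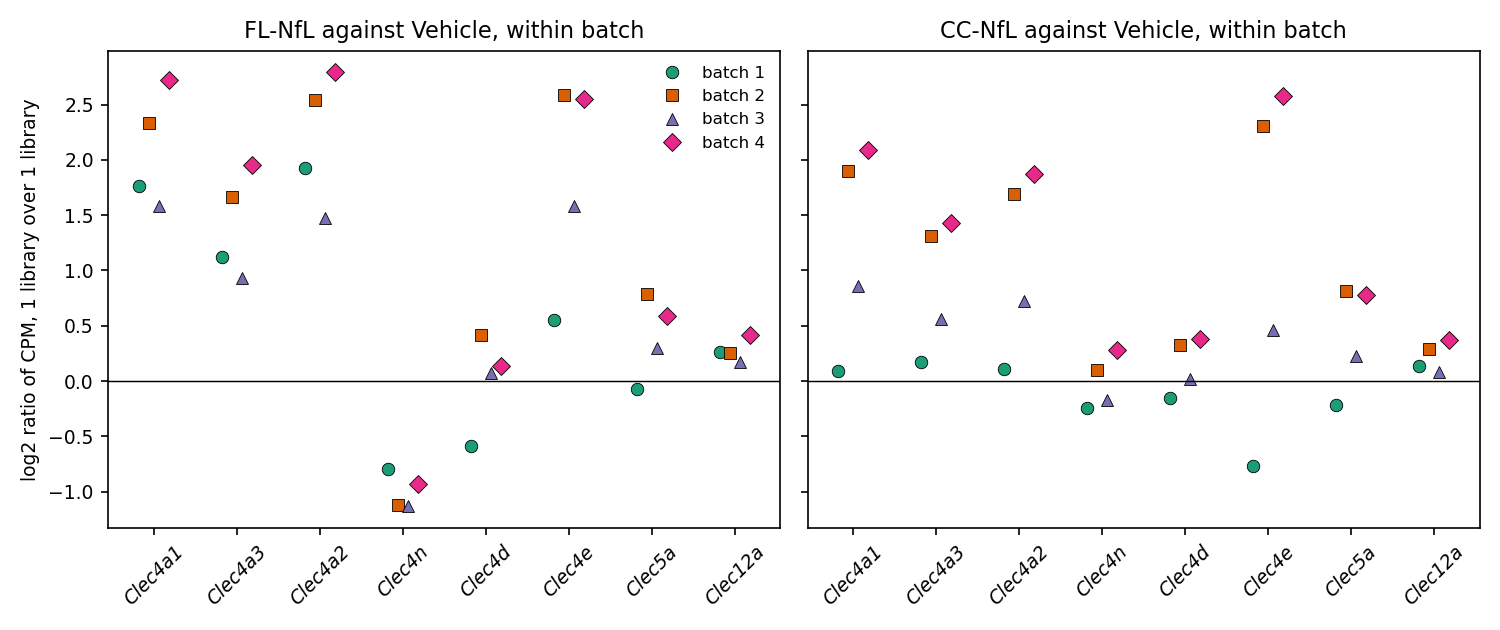
Log2 ratio of one treated library over the Vehicle library of the same batch, for FL-NfL (left) and CC-NfL (right); each point is 1 library pair. Points of batches 2 and 4 lie highest for Clec4a1, Clec4a2, Clec4a3 and Clec4e in both panels, and those of Clec4n lie below 0 in all 4 batches with FL-NfL.

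The direct comparison of FL-NfL with CC-NfL asks whether the whole protein and its coiled-coil part differed. No receptor gene passed (edgeR; 2 had an unadjusted p under 0.05, as had 21.6% of all tested genes), where 1.38% of all tested genes were called higher and 1.34% lower. Clec4a2 came nearest, 2.04-fold higher in FL-NfL than in CC-NfL cells (log2 fold change 1.03 ± 0.25, adjusted p = 0.0522), with all 4 FL-NfL libraries above all 4 CC-NfL libraries. It passed in 9 of 19 alternatives, among them the replicate block (1.06, adjusted p = 0.0127), DESeq2 (adjusted p = 0.00194) and the fits without CC-NfL replicate 2 (adjusted p = 0.0492), Vehicle replicate 3 (0.0383) or Vehicle replicate 4 (0.0477). Clec4a1 was 1.7-fold higher (0.77 ± 0.28, adjusted p = 0.136; with the replicate block 0.81, adjusted p = 0.0461; with DESeq2 adjusted p = 0.0486), also without overlap; with the block and replicates 2 and 4 summed it did not pass (adjusted p = 0.0612). This separation of libraries occurred upward in 7.46% and downward in 5.02% of all tested genes. These were the 2 receptor genes that the replicate block and DESeq2 called higher. The block called 8.99% of all tested genes higher, and DESeq2 5.5% of the 12992 genes to which it gave an adjusted p. Clec4a3 had 0.50 ± 0.27 (adjusted p = 0.307, and 0.0535 with the block). All 3 DCIR-type genes were higher in FL-NfL than in CC-NfL cells in each of the 4 batches, as were 21.1% of all tested genes.

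Clec4n was lower in FL-NfL than in CC-NfL cells of the same batch in all 4 batches, at 0.684, 0.428, 0.517 and 0.433 of the CC-NfL level; 22.3% of all tested genes were lower in all 4. Its log2 fold change was −0.85 ± 0.54 (adjusted p = 0.396), and with the replicate block it fell by 0.98 ± 0.10 on the log2 scale (adjusted p = 0.00053), in a fit that called 10.1% of all tested genes lower. Clec5a showed no detectable difference between the 2 proteins, at 0.0037 with a 95% interval of −0.44 to 0.44 (adjusted p = 0.994), and Clec12a had 0.05 with an interval of −0.19 to 0.29 (adjusted p = 0.823). Clec4e had 0.73 ± 0.53 (adjusted p = 0.459) and Clec4d −0.16 ± 0.28 (adjusted p = 0.767).

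The genes outside the 8 receptors whose pattern over the 12 libraries came closest to the 3 called ones were found by the root mean square difference of mean-centred log2 CPM. For Clec4a1, whose own values had a root mean square of 0.95 around their mean, these were Trpm2, a calcium channel gene, at a difference of 0.14, and Lst1 at 0.17; among the receptors Clec4a2 stood at 0.16 from it and Clec4a3, the next gene in the genome, at 0.33. For Clec4a2 they were Rac2, the GTPase of the phagocyte oxidase, at 0.19 and Sla, a Src-like adaptor, at 0.21. For Clec4a3 they were Pgap2 at 0.15 and Mlkl, the effector of necroptosis, at 0.16. Rac2 averaged 1154 CPM in FL-NfL, 476 in CC-NfL and 251 in Vehicle cells, and Trpm2 averaged 47.4, 27.3 and 10.3 CPM in the same groups.

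Among 34 other C-type lectin genes 17 could be tested, and with FL-NfL against Vehicle 2 of them rose and 4 fell. Of all tested genes, 14% were called higher and 10.9% lower in this comparison. The rises were Cd209f (log2 fold change 3.81 ± 0.98, adjusted p = 0.0152), at 8.74 ± 4.73 CPM in FL-NfL and 0.627 ± 1.15 in Vehicle cells, and Cd69, an early activation marker (1.48 ± 0.41, adjusted p = 0.0215, lost without FL-NfL replicate 2 or Vehicle replicate 1, 2 or 4). Those that fell were Cd93 (−1.16 ± 0.26, adjusted p = 0.00818), the scavenger receptor Colec12 (−0.92 ± 0.24, adjusted p = 0.0174), Langerin, Cd207 (−2.24 ± 0.62, adjusted p = 0.0215, at 0.383 ± 0.368 CPM in FL-NfL and 1.88 ± 0.578 in Vehicle cells), and the mannose receptor Mrc1 (−0.94 ± 0.31, adjusted p = 0.0457). The call of Colec12 was lost without FL-NfL replicate 2 or 4 or Vehicle replicate 1, and that of Cd207 without FL-NfL or Vehicle replicate 4. That of Mrc1 was lost in 8 of 12 such fits, without FL-NfL replicate 1, 2 or 4, CC-NfL replicate 1 or any Vehicle library. Clec7a, the beta-glucan receptor Dectin-1, averaged 402 ± 98.3 CPM in FL-NfL, 482 ± 32.2 in CC-NfL and 527 ± 79.6 in Vehicle cells (−0.39, adjusted p = 0.102). Mrc1 is also a marker of border macrophages, whose 8 summed markers ran from 386 to 732 CPM in FL-NfL, 568 to 1210 in CC-NfL and 761 to 1456 in Vehicle cells. Most of that sum was Mrc1 itself. The part of these markers in the receptor levels was not tested.

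Of 24 genes for adaptors and activating signalling, 10 rose and 2 fell with FL-NfL against Vehicle (edgeR, which called 14% of all tested genes higher and 10.9% lower). The list's median log2 fold change was 0.20, against −0.02 over all tested genes. Fcer1g, which encodes the FcRγ chain that Dectin-2 and Mincle need, rose to 1231 ± 114 CPM in FL-NfL cells, against 859 ± 165 in CC-NfL and 655 ± 78.6 in Vehicle cells (log2 fold change 0.91 ± 0.14, adjusted p = 0.00136). The adaptor Lcp2 (0.70 ± 0.11, adjusted p = 0.00192) and Vav1 (0.62 ± 0.12, adjusted p = 0.00451) rose too, as did Syk, at 467 ± 38.7 CPM in FL-NfL and 295 ± 97.4 in Vehicle cells (0.67, adjusted p = 0.0208, lost without FL-NfL replicate 2 or Vehicle replicate 2 or 4). Tyrobp, the gene of DAP12, had −0.12 (adjusted p = 0.223) and Card9 0.19 (adjusted p = 0.34). Rasgrp3, a Ras activator, fell in FL-NfL cells against Vehicle (−1.83 ± 0.20, adjusted p = 0.000386) and against CC-NfL (−1.38 ± 0.20, adjusted p = 0.00937, lost without FL-NfL replicate 2), and Traf6 fell slightly against Vehicle (−0.35 ± 0.07, adjusted p = 0.00622).

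On the inhibitory side 4 of 14 phosphatases and brakes rose with FL-NfL and none fell (edgeR, which called 14% of all tested genes higher and 10.9% lower). With the replicate block 8 were higher and 2 lower, in a fit that called 21.4% and 22.4% of all tested genes. Ptpn6, the gene of SHP-1, averaged 625 ± 28.4 CPM in FL-NfL, 553 ± 96.4 in CC-NfL and 427 ± 55.4 in Vehicle cells (0.55 ± 0.13, adjusted p = 0.00923), and Ptpn11, the gene of SHP-2, rose by 0.23 ± 0.05 (adjusted p = 0.00802). The others were Ptprj (0.39 ± 0.09, adjusted p = 0.00855) and Dok3 (0.66 ± 0.18, adjusted p = 0.0186, lost without Vehicle replicate 4).

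Of 14 transcription factors that act on myeloid lectin genes, 2 fell and none rose with FL-NfL (edgeR), a share of lower genes near the 10.9% of all tested genes. With the replicate block 3 were higher and 5 lower, against 21.4% and 22.4% of all tested genes. Cebpa averaged 97.9 ± 10.7 CPM in FL-NfL, 168 ± 51.8 in CC-NfL and 228 ± 14.2 in Vehicle cells (−1.22 ± 0.17, adjusted p = 0.000947). It was also lower in FL-NfL than in CC-NfL cells (−0.78 ± 0.17, adjusted p = 0.0386), a call lost without FL-NfL replicate 2, 3 or 4, CC-NfL replicate 3 or Vehicle replicate 2 or 4. Irf4 fell with FL-NfL against Vehicle at low levels (1.49 ± 0.613 CPM in FL-NfL and 3.35 ± 1.15 in Vehicle cells; adjusted p = 0.0343, lost without FL-NfL replicate 1, 2 or 4 or Vehicle replicate 2, 3 or 4). Cebpb (0.48, adjusted p = 0.178) and Spi1, the gene of PU.1 (0.20, adjusted p = 0.119), did not pass.

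Of 17 genes that Syk and CARD9 signalling can induce, 12 could be tested, and with FL-NfL 6 rose and 1 fell against Vehicle (median log2 fold change 0.96). Over all tested genes 14% were called higher and 10.9% lower. Nos2 had 10.4 ± 4.5 CPM in FL-NfL and 1.27 ± 0.597 in Vehicle cells (3.02 ± 0.43, adjusted p = 0.00101), and was higher in FL-NfL than in CC-NfL cells (2.12 ± 0.40, adjusted p = 0.024, lost without FL-NfL replicate 2 or 4 or CC-NfL replicate 1, 3 or 4). Ptgs2 (2.07 ± 0.47, adjusted p = 0.00843), Il10 (1.92 ± 0.32, adjusted p = 0.00216) and Tnf (0.83 ± 0.19, adjusted p = 0.00889) rose, and Nlrp3 fell (−0.34 ± 0.10, adjusted p = 0.0273, lost without FL-NfL replicate 2 or 4 or Vehicle replicate 1 or 3). These genes also respond to other receptors. With CC-NfL against Vehicle no gene of these 5 lists passed (edgeR, with or without the replicate block); the smallest p-value in each list belonged to Cd209f (2.03, adjusted p = 0.685), Fcer1g (0.39, adjusted p = 0.661), Ptpn6 (0.37, adjusted p = 0.653), Cebpa (−0.44, adjusted p = 0.662) and Il10 (0.73, adjusted p = 0.674). Between FL-NfL and CC-NfL, no other lectin gene and no phosphatase gene passed without the block, the nearest being Cd207 (−2.09 ± 0.62, adjusted p = 0.0856) and Ptpn11 (0.21 ± 0.05, adjusted p = 0.0532). With the replicate block both passed (adjusted p = 0.0168 and 0.0215), and in all 2 other lectin genes were higher and 5 lower, and 2 phosphatase genes higher. That fit called 8.99% of all tested genes higher and 10.1% lower.

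The comparisons against Vehicle share their 4 Vehicle libraries, so their values are not independent of each other. The summed microglial markers ran from 7616 to 7833 CPM in FL-NfL, 8362 to 9074 in CC-NfL and 8447 to 9770 in Vehicle cells; within that list Cx3cr1 (−0.87, adjusted p = 0.00556) and Csf1r (−0.43, adjusted p = 0.0362, lost without FL-NfL replicate 2 or 4 or Vehicle replicate 1, 2 or 3) fell and Aif1 rose (1.83, adjusted p = 0.0024) with FL-NfL. Summed neutrophil markers ran from 100 to 136 CPM in FL-NfL, 102 to 139 in CC-NfL and 96.9 to 153 in Vehicle cells, mostly from Csf3r, and summed monocyte markers from 12 to 26, 15.2 to 34.2 and 17.9 to 43.3 CPM. Summed dendritic cell markers lay between 2.44 and 5.06 CPM in all 12 libraries. Of the 2 tested ones, Xcr1 was called higher with FL-NfL against Vehicle (1.47, edgeR adjusted p = 0.0328). It averaged 1.71 ± 0.81 CPM in FL-NfL and 0.61 ± 0.186 in Vehicle cells. Zbtb46 had −0.43 (adjusted p = 0.161). Astrocyte markers ran from 20.8 to 31.9 CPM in FL-NfL, 21.3 to 47.1 in CC-NfL and 23.1 to 52.4 in Vehicle cells, and neuron markers from 15.3 to 45.6, 24.8 to 73.1 and 30.2 to 93.2 CPM. Both sums were lower in the FL-NfL than in the Vehicle library of each of the 4 batches. So were the summed microglial, monocyte, border macrophage and fibroblast markers. Of all tested genes, 28.1% were lower in all 4 batches. Most of the border macrophage sum was Mrc1, and nearly all of the fibroblast sum was Fn1. Among the border macrophage markers Cbr2 (1.73, edgeR adjusted p = 0.0506) and Folr2 (0.25, adjusted p = 0.664) had positive log2 fold changes with FL-NfL against Vehicle. The other tested genes of that list had negative ones. Without the block, edgeR called 1 of 8 astrocyte and 1 of 7 tested neuron markers lower with FL-NfL against Vehicle, and 10.9% of all tested genes. With the replicate block 6 of 8 astrocyte and 7 of 7 tested neuron markers were called lower with FL-NfL. That fit called 22.4% of all tested genes lower. Oligodendrocyte markers ran from 231 to 255, 224 to 269 and 208 to 263 CPM. The part of these cell types in the receptor levels was not tested.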

How the data were processed

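The authors deposited 1 table of unnormalized read counts by Ensembl identifier, with 12 library columns; per the submitters' processing notes, reads were aligned with GSNAP to GRCm38. Per the labels, libraries came from a stranded poly(A) kit and single reads of 50 bases; the sources used here name no counting tool, annotation or strand setting. Totals ran from 20162427 to 31048044. Genes were kept with filterByExpr (14687 of 52636), scaled with TMM factors and fitted in 1 edgeR 4.0.16 quasi-likelihood model with 3 groups (R 4.3.3, 9 residual degrees of freedom); p-values were two-sided, adjusted by Benjamini-Hochberg over all tested genes, threshold 0.05. SEs come from the F statistic. RPKM uses the merged exon length of GENCODE M21. The alternatives were a replicate block, upper-quartile factors, no filter, 2-group fits, DESeq2 1.42.0, each library left out and, added after the data were seen, replicates 2 and 4 summed. The labels call the replicate number a batch, and libraries with the same number deviated together (r from 0.306 to 0.735, 12 of 12 pairs over 0.1, against −0.461 to 0.445 for different numbers). The ranges overlapped, and Vehicle replicate 2 correlated more with FL-NfL replicate 4 (0.445) than with FL-NfL replicate 2 (0.313). The pairing of replicates 2 and 4 by number thus rests on the labels. The fits were tested on simulated data. The receptor genes, lists and rules were chosen with earlier results of these data known. Besides all 8 receptors the rule names, per list and comparison, up to 4 called genes with the smallest p in each direction, or else the gene with the smallest p, and the 2 genes most like each called receptor (mean 5 CPM or more); Clec7a, Clec4a4, Clec4b1, Syk, Tyrobp, Card9, Cebpb and Spi1 were added after their values were seen. A few genes that the rule or the marker lists name are not reported here.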

Additional observations from a re-analysis of the deposited data

Results flagged for a closer look

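In 24 sets of 4 libraries (8 receptor genes in 3 groups), 2 had a library far from the other 3, and chance alone gives about 1 in 20. Both were CC-NfL replicate 1. The 24 sets come from the same 12 libraries and are not independent, so the 2 are not separate events. Clec4a2 was lowest there at 46.5 CPM, with a gap of 0.891 of the range of its group. Clec12a was lowest there at 425 CPM, with a gap of 0.935 of the range.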

How the results depend on the processing

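The direction of Clec4a1, Clec4a2 and Clec4a3 with FL-NfL against Vehicle was the same in all 19 alternatives, and their calls held in 19, 19 and 18 of them; the exception was Clec4a3 with replicates 2 and 4 summed (1.28, edgeR adjusted p = 0.0511). With FL-NfL against Vehicle, the replicate block called 6 receptor genes higher and 1 lower (5 and 1 with replicates 2 and 4 also summed, where Clec5a no longer passed). Over all genes it called 3148 higher and 3284 lower, and summing replicates 2 and 4 gave 616 and 424. Leaving out 1 library gave 3 to 4 receptor genes higher and, over all genes, 1392 to 2349 higher and 992 to 1735 lower, with the fewest lower ones without FL-NfL replicate 2. With CC-NfL against Vehicle, DESeq2 called 2 receptor genes and 25 genes higher and 9 lower, and the replicate block called 1 and 1. Leaving out 1 library gave 0 to 2 receptor genes, 0 to 18 genes higher and 0 to 8 lower, the upper ends without CC-NfL replicate 1. For FL-NfL against CC-NfL, the replicate block and DESeq2 called 2 receptor genes higher each, and upper-quartile factors, no filter, the 2-group fit, and the block with replicates 2 and 4 summed called 1 each. Both block fits called 1 lower. Over all genes the block gave 1321 higher and 1485 lower, the 2-group fit 85 and 83, DESeq2 714 and 583, replicates 2 and 4 summed 0 and 1, and the same with the block 705 and 758. Leaving out 1 library gave 0 to 1 receptor genes, 14 to 324 genes higher and 18 to 277 lower, the fewest without FL-NfL replicate 2. Signs turned for values near 0 that were never called. Clec4d with FL-NfL against Vehicle was 0.0095 with the block and −0.22 to 0.28 with 1 library left out; Clec4d and Clec4n with CC-NfL against Vehicle ran from −0.14 to 0.45 and from −0.41 to 0.30. Between FL-NfL and CC-NfL, Clec4d ran from −0.25 to 0.064, Clec12a from −0.019 to 0.12 and Clec5a from −0.12 to 0.10, with −0.0083 for Clec5a with the block and −0.025 with upper-quartile factors. The cause of these shifts was not tested.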
